A study of Mus musculus with 12 samples.

Results

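The jumonji histone demethylases described here are 10 autosomal genes, Kdm2a, Kdm2b, Kdm3a, Kdm3b, Jmjd1c, Kdm4a, Kdm4b, Kdm4c, Kdm4d and Kdm6b, taken by name from the 26061 genes of the deposited expression table. They were picked as lysine demethylases that use the same cofactors as the TET enzymes, and not by a rule on their values. Earlier results of these data were known when they were picked. The set is not complete, and other jumonji genes are described further below. Rankings within the family cover these 10 genes only. All 10 had a row in the table, and 9 passed the filter on low values that 14185 genes passed. Kdm4d did not pass it.

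The study rescued Tet2 knock-out (KO) mouse embryonic stem cells (ESCs) with PiggyBac vectors, a transposon system that inserts a transgene stably, carrying either wild-type (WT) TET2 or a catalytic mutant (H1304Y, D1306A). Each rescue line was grown without feeders on gelatin, either in serum with LIF (primed) or in 2i medium with LIF and the inhibitors PD0325901 and CHIR99021 (naïve). This gave 4 groups of 3 mRNA-seq libraries, WT naïve, mutant naïve, WT primed and mutant primed, or 12 libraries in all. All 12 also carried an shRNA against Setdb1 from a lentiviral pLKO.1 vector, with puromycin selection from 48 h after infection for 3 days, so no library with intact SETDB1 was compared. Whether each rescue line was 1 clone is not stated in the sources used here, and each line stood for its genotype alone, so line and genotype cannot be told apart. The labels number replicates and do not say what separated them, so p-values measure the spread between these samples, which may be technical.

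Jumonji demethylases hold an iron ion in their JmjC domain and use oxygen and 2-oxoglutarate to oxidise a methyl group on a histone lysine, which then leaves as formaldehyde. TET enzymes use the same cofactors to oxidise 5-methylcytosine in DNA. In ESCs several of these demethylases act on H3K9 methylation, the class of mark that SETDB1 deposits, while others act on H3K36 or H3K27 methylation.

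The iron is held in part by a histidine followed, after 1 residue, by an aspartate or a glutamate. The coding bases around this pair are shown because the pair takes part in holding the iron. The mutant TET2 construct also replaces a histidine and an aspartate of TET2. The bases were read for 9 members from the mm9 transcript annotation, each with 27 bases on the coding strand. All 9 matched the mm9 genome at the positions given. Kdm3b was not searched for the pair, so its bases are not shown and it is not part of the comparison below. The capitals mark the histidine codon and the acid codon.
Kdm2a, exon 8, minus strand, chr19:4351773-4351799: actgacttcCATgtgGATtttggaggt
Kdm2b, exon 7, minus strand, chr5:123399115-123399141: actgacttcCACattGACtttggaggc
Kdm3a, exon 23, minus strand, chr6:71542125-71542151: acaaatcttCACttaGATgtatctgat
Jmjd1c, exon 22, plus strand, chr10:66708817-66708843: acaaatcttCACattGAAgcttctgat
Kdm4a, exon 5, minus strand, chr4:117841034-117841060: ttcgcctggCACacgGAAgacatggat
Kdm4b, exon 5, plus strand, chr17:56495409-56495435: tttgcctggCACacaGAGgacatggac
Kdm4c, exon 5, plus strand, chr4:73944468-73944494: tttgcgtggCACacgGAGgacatggat
Kdm4d, exon 2, minus strand, chr9:14268423-14268449: tttgcgtggCACacgGAGgacatggac
Kdm6b, from exon 18 across an intron, minus strand, chr11:69214860-69215023: acgccaggcCACcaaGAGaataacaat

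The Kdm4 genes were the most alike in these bases. Kdm4c and Kdm4d differed at 1 of 27 bases, and no pair of Kdm4 genes differed at more than 4. Kdm2a and Kdm2b differed at 5, as did Kdm3a and Jmjd1c. The acid codon was an aspartate codon in Kdm2a, Kdm2b and Kdm3a and a glutamate codon in the other 6, so Jmjd1c differed from its relative Kdm3a at this codon.

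Depth was 8066662 to 21335933 reads in genes per library. Tet2 mRNA, which checks the rescue lines, was higher in the WT than in the mutant line. By limma the log2 difference was 2.16 (adjusted p = 0.0154) in naïve and 1.84 (adjusted p = 0.0297) in primed cells. The lines thus differed in the amount of Tet2 transcript as well as in its sequence. At the protein level, the study's Western blot found similar amounts of TET2 in both lines. Setdb1 did not pass the test between lines (0.13 naïve and 0.16 primed) but was lower in naïve than in primed cells over both lines (log2 difference -0.44, adjusted p = 0.0472). The 6 ESC markers Pou5f1, Nanog, Sox2, Zfp42, Esrrb and Utf1 summed to 3216 to 4060 CPM (reads scaled to the gene reads of the library) in every library. Of the 6, 3 were called between the media. Utf1 (log2 difference, naïve minus primed, of -2.22) and Zfp42 (-1.12) were lower and Nanog (0.48) higher in naïve cells. Of the naïve and primed markers tested, Dnmt3l (-5.18) and Dnmt3b (-2.33) were called lower and Prdm14 (1.63) higher in naïve cells. Of the 5 fibroblast markers Col1a2, Col3a1 and Postn were at 0 reads in all 12 libraries, and Thy1 (8 to 100 reads) and Col1a1 (1 to 10 reads) were detected in each. All 14 Y-chromosome genes tested were higher in the WT than in the mutant line in both media, with a median log2 difference of 1.35 in naïve cells, where 8 passed the test, and 1.48 in primed cells, where 9 passed it.

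Values are given on 2 scales. The deposited values are variance-stabilised and on a log2 scale, with a lowest value of 3.81 for a gene with 0 reads, and all differences below are differences of these values. Levels between genes were compared per length, as RPKM, the reads of a gene scaled to its exon length and to the gene reads of its library. The exon length counts every annotated exon base over all transcripts of the gene, so the order between genes depends on the annotation. A gene was called where limma gave an adjusted p under 0.05 over all genes tested.

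Kdm3a, which removes the mono- and dimethyl marks of H3K9, had the highest level of the family in every library. It averaged 31.5 RPKM over the 12 libraries and stood above the next gene, Kdm4a at 15.0 RPKM, in 12 of 12 libraries. Kdm4c (14.7 RPKM) and Kdm3b (13.2 RPKM) came next. As neighbours in this order, Kdm4a and Kdm4c overlapped, with Kdm4a above in 8 of 12 libraries, as did Kdm4c and Kdm3b, with Kdm4c above in 8 of 12, while Kdm4a was above Kdm3b in 10 of 12. Kdm2a (9.55 RPKM), Kdm2b (7.44 RPKM) and Jmjd1c (7.36 RPKM) followed, and their order depended on the medium. In WT primed cells Jmjd1c was above Kdm2b in 3 of 3 libraries, and in WT naïve cells it was the lowest but 2 of the family. As means over the 12 libraries, Kdm6b (4.03 RPKM) and Kdm4b (3.69 RPKM) were lowest among the members tested and overlapped with each other. In naïve cells the mean of Jmjd1c was below that of Kdm6b, at 3.88 against 4.64 RPKM in WT and 2.68 against 4.62 RPKM in mutant cells.

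**Figure D1:**
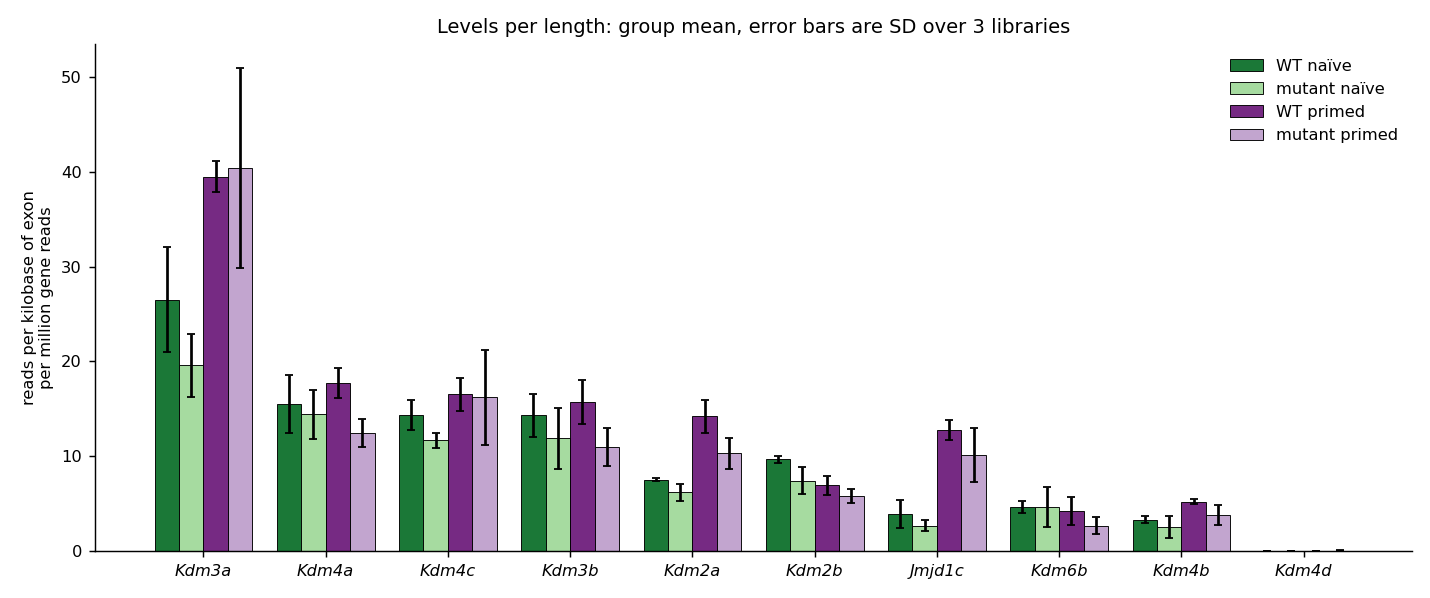
Level per length (vertical axis, RPKM from 0) of the 10 genes in the 4 groups, with bars for the mean and error bars for the SD of 3 libraries. Kdm3a stands highest in every group, at 19.6 to 40.4 RPKM, Jmjd1c differs most between media as a ratio, and the bars of Kdm4d cannot be seen at this scale.

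Kdm4d encodes a short member of its family that lacks the reader domains of Kdm4a, Kdm4b and Kdm4c. It had 0 reads in 8 of 12 libraries and 5 reads in all, with no more than 2 in any library. A count of 3 reads in the shallowest library would be 0.13 RPKM, so a level below that could not be measured in that library. Tested without the filter on low values, Kdm4d was not called between naïve and primed cells (adjusted p = 0.664) or between the lines (adjusted p = 0.691 naïve and 0.946 primed). Its gene (chr9:14266992-14304926) carries 2861 exon bases, fewer than any other member.

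**Figure D2:**
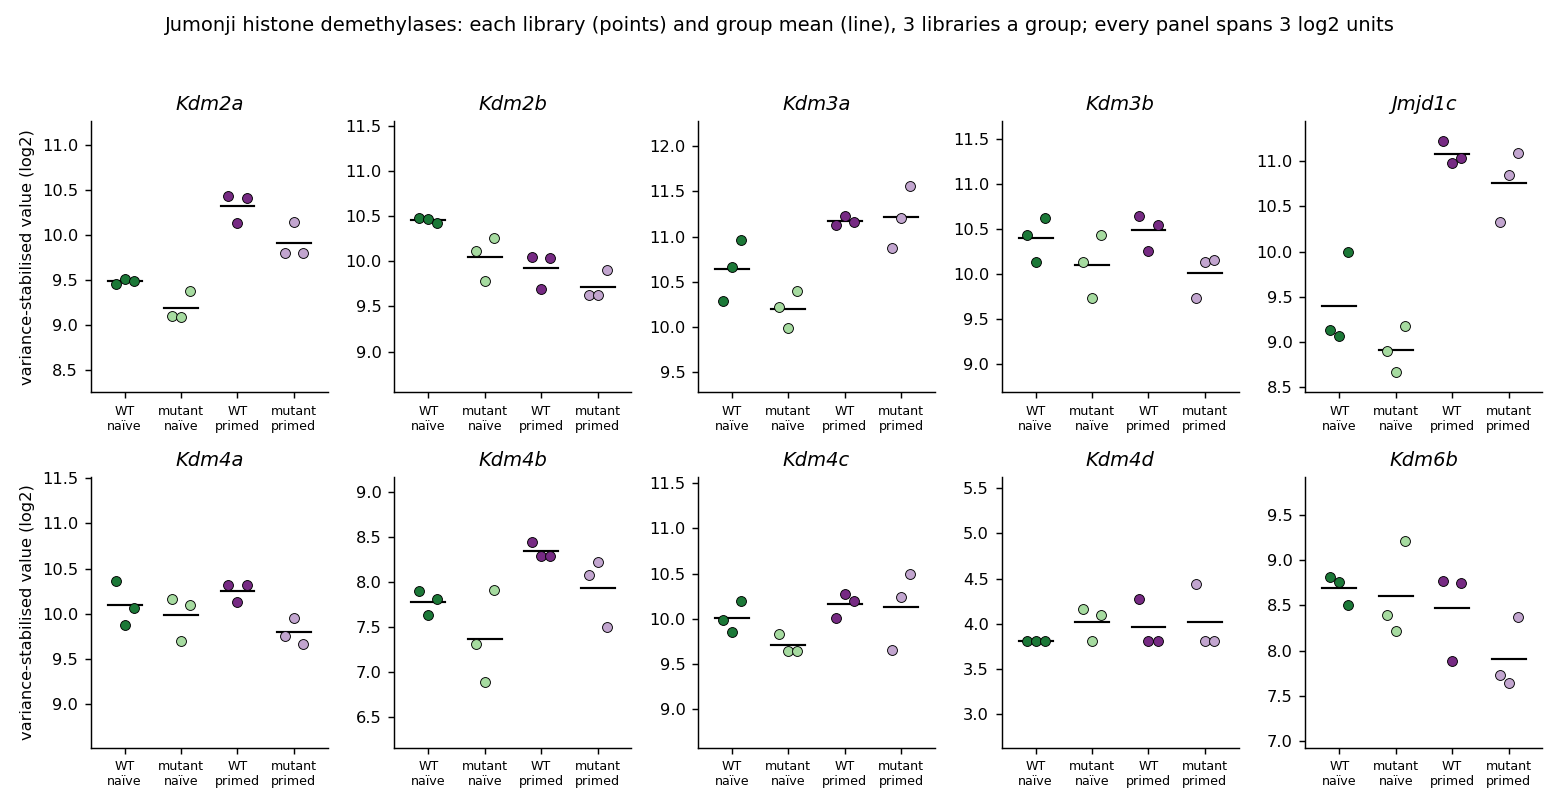
Variance-stabilised log2 value (vertical axis) of each of the 10 genes in the 3 libraries of each group (points) and the group mean (line), with every panel spanning 3 log2 units. The naïve and primed points of Jmjd1c and Kdm2a do not overlap, and the points of Kdm4d lie at or near the lowest value of 3.81.

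The first question was how the family differed between naïve and primed cells, as the mean of both rescue lines. Jmjd1c, Kdm2a, Kdm3a and Kdm4b were lower in naïve cells and Kdm2b was higher, so that 5 of the 9 members tested were called. The background was 51.8% of all genes tested, with 25.4% lower and 26.4% higher in naïve cells, so the share of members called was near that of all genes. The median log2 difference over the 9 members was -0.28, beside 0.00 over all genes tested. In bulk libraries, fewer cells with a transcript and less of it per cell cannot be told apart, and this holds for every difference below. Setdb1 and Tet2 mRNA moved with the medium too (Tet2 log2 difference -1.71, adjusted p = 1.94e-05), as did single markers of other cells. The neural marker Pax6 was lower in naïve cells (-1.38, adjusted p = 1.53e-07), at 13.1 and 13.9 CPM in the WT and mutant naïve groups and 39.2 and 38.9 CPM in the primed ones, while Nes was not called (0.41). Of the trophoblast markers Cdx2, Elf5 and Gata3, Gata3 alone passed the filter, and the 3 summed to 6.79 to 13.2 CPM in primed and 0 to 0.166 CPM in naïve libraries. The mesoderm marker Eomes was lower in naïve cells (-1.51, adjusted p = 6.89e-08), and T and Mixl1 did not pass the filter, with T at 0.832 and 0.650 CPM in the WT and mutant naïve groups and 0.0340 and 0.151 CPM in the primed ones. Of the fibroblast markers Thy1 was higher in naïve cells (1.13, adjusted p = 1.05e-05), and all 5 summed to 2.58 to 7.47 CPM in naïve and 1.17 to 1.64 CPM in primed libraries. Of the 4 primitive endoderm markers, Gata4 (0.02) and Sox17 (0.05) were not called between the media, and Gata6 and Sox7 did not pass the filter. Sox7 was at 0 and 0.0165 CPM in the WT and mutant naïve groups and 1.68 and 0.820 CPM in the primed ones. The part of Setdb1, Tet2 and these markers in the differences of the members was not tested.

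Jmjd1c (chr10:66558873-66719074, plus strand, mm9), a relative of the H3K9 demethylases Kdm3a and Kdm3b whose own activity on H3K9 is debated, had the largest difference of the family. Its log2 values were 9.13, 9.07 and 9.99 in WT naïve and 8.90, 8.66 and 9.17 in mutant naïve libraries. They were 11.22, 10.98 and 11.03 in WT primed and 10.33, 10.85 and 11.09 in mutant primed libraries. Every naïve library lay below every primed library, although the third WT naïve library (9.99) stood above the other 5 naïve libraries. The log2 difference was -1.76 (SE 0.17, adjusted p = 3.06e-07), which is 3.39-fold lower in naïve cells. It was -1.68 in the WT line (adjusted p = 5.17e-05) and -1.84 in the mutant line (adjusted p = 2.20e-05). Per length, the level was 3.88 ± 1.46 RPKM in WT naïve and 12.8 ± 1.05 RPKM in WT primed cells (SD, n = 3).

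Kdm3a (chr6:71538968-71582899, minus strand) was also lower in naïve cells. Its log2 values were 10.28, 10.67 and 10.96 in WT naïve and 10.22, 9.99 and 10.40 in mutant naïve libraries. They were 11.13, 11.23 and 11.16 in WT primed and 10.88, 11.21 and 11.57 in mutant primed libraries. Only the third WT naïve library (10.96) lay above a primed library, the first of the mutant line (10.88). The log2 difference over both lines was -0.78 (SE 0.14, adjusted p = 0.000192), a 1.71-fold lower value in naïve cells. It was -1.02 in the mutant line (adjusted p = 0.00085) and -0.54 in the WT line (adjusted p = 0.0402), and the call in the WT line was lost when any of 5 of its 6 libraries was left out (adjusted p = 0.0731 to 0.179). The difference between the lines in this change was not called (log2 difference 0.48, SE 0.27, adjusted p = 0.976).

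Kdm3b (chr18:34936662-34999024, plus strand), like Kdm3a a demethylase of H3K9me1 and H3K9me2, did not share the pattern. Its log2 difference between naïve and primed cells was 0.00 (95% confidence interval -0.29 to 0.29, adjusted p = 0.996). Its values ran from 9.73 to 10.62 in naïve and from 9.74 to 10.65 in primed libraries, so the media covered nearly the same range.

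Among Kdm4a, Kdm4b and Kdm4c, whose products act on the trimethyl marks of H3K9 and H3K36, Kdm4b (chr17:56465485-56542293, plus strand) was lower in naïve cells. Its log2 values were 7.90, 7.63 and 7.81 in WT naïve and 7.32, 6.89 and 7.91 in mutant naïve libraries. They were 8.44, 8.29 and 8.29 in WT primed and 8.08, 8.22 and 7.51 in mutant primed libraries. The WT groups did not overlap, while the third mutant primed library (7.51) lay within the naïve range. The log2 difference over both lines was -0.56 (SE 0.17, adjusted p = 0.0102), and the same size within the WT (-0.56, adjusted p = 0.0773) and mutant line (-0.56, adjusted p = 0.0745) was not called. Kdm4b rested on 85 to 537 reads per library, the fewest of the members tested. Kdm4c (chr4:73888401-74051764, plus strand) had a log2 difference of -0.28 (adjusted p = 0.0852), which was called without the first mutant primed library (-0.40, adjusted p = 0.00711). Kdm4a (chr4:117809562-117852648, minus strand) had one of 0.02 (95% confidence interval -0.24 to 0.27, adjusted p = 0.918).

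The Kdm2 genes, whose products remove methyl groups from H3K36 and bind unmethylated CpG sites, moved in opposite directions. Kdm2a (chr19:4316170-4398266, minus strand) had log2 values of 9.46, 9.51 and 9.49 in WT naïve and 9.10, 9.09 and 9.38 in mutant naïve libraries. It had values of 10.43, 10.14 and 10.41 in WT primed and 9.80, 10.14 and 9.80 in mutant primed libraries. No naïve library reached a primed one, and the log2 difference was -0.78 (SE 0.11, adjusted p = 2.00e-05), or 1.72-fold lower in naïve cells. It was -0.84 in the WT line (adjusted p = 0.000564) and -0.72 in the mutant line (adjusted p = 0.00192).

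Kdm2b (chr5:123320677-123465089, minus strand), which also brings a variant Polycomb complex to CpG islands, had log2 values of 10.47, 10.47 and 10.43 in WT naïve and 10.12, 9.78 and 10.26 in mutant naïve libraries. Its values were 10.04, 9.69 and 10.04 in WT primed and 9.63, 9.63 and 9.90 in mutant primed libraries. The WT naïve libraries lay above all others, and the mutant naïve libraries overlapped with the primed ones. The log2 difference over both lines was 0.43 (SE 0.11, adjusted p = 0.00465), a 1.35-fold higher value in naïve cells. In the WT line it was 0.53 (adjusted p = 0.0173), which was not called without the second WT primed library (0.41, adjusted p = 0.0837), and in the mutant line 0.33 (adjusted p = 0.119). Jmjd1c and Kdm2a were the members whose naïve and primed libraries did not overlap over both lines, 2 of 9 beside 23.6% of all genes tested.

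Kdm6b (chr11:69212010-69227177, minus strand) encodes a demethylase of H3K27me3, the Polycomb mark. Its log2 values were 8.82, 8.76 and 8.50 in WT naïve and 8.39, 8.22 and 9.21 in mutant naïve libraries. They were 8.78, 7.88 and 8.75 in WT primed and 7.73, 7.64 and 8.37 in mutant primed libraries. The groups overlapped, and the log2 difference of 0.46 (SE 0.20, adjusted p = 0.0618) was not called, although it was called without the second mutant naïve (adjusted p = 0.0363), the first WT primed (adjusted p = 0.0474) or the third mutant primed library (adjusted p = 0.0206). The libraries did not keep strand, and 4.11% of the exon bases of Kdm6b lie opposite exons of 1700064E03Rik, whose reads cannot be told apart there. The same holds for 1.68% of the exon bases of Kdm2b, opposite A930024E05Rik, and for under 1% of those of Kdm3b, opposite Gm17557.

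**Figure D3:**
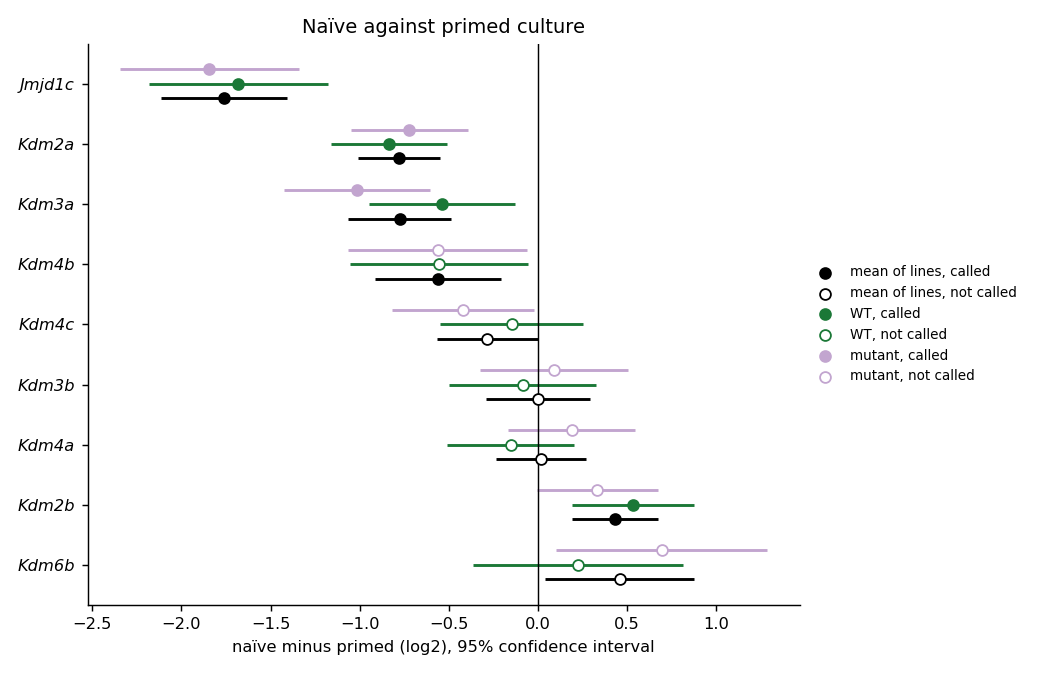
Difference between naïve and primed cells (horizontal axis, log2) for the 9 members tested, as the mean of both lines and within the WT and mutant line. Points are differences, lines 95% confidence intervals, and filled points are called. Jmjd1c lies farthest from 0, at -1.76, and Kdm2b is the called member on the higher side.

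Within each line, 4 of 9 members were called in WT cells (Jmjd1c, Kdm2a, Kdm3a and Kdm2b), beside 35.9% of all genes tested, and 3 of 9 in mutant cells (Jmjd1c, Kdm3a and Kdm2a), beside 35.2%. Without the second WT primed library 2 members were called in the WT line, and the calls over all genes fell from 5095 to 4533. Without the third mutant primed library 5 members were called in the mutant line. The count over all genes for that fit is not given here, so the 5 cannot be read as a trait of the members.

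The second question was whether the catalytic activity of TET2 went with a change in these genes. No member was called between WT and mutant TET2 by limma, in naïve cells (0 of 9, beside 0.0987% of all genes) or in primed cells (0 of 9, beside 0.254%). At an unadjusted p under 0.05, 2 members passed in naïve cells (Kdm2b and Kdm3a, beside 13.3% of all genes) and 3 in primed cells (Kdm2a, Kdm4a and Kdm3b, beside 16.2%). With limma-voom on the recovered reads, too, 0 members were called in each medium. A fit that blocked on replicate number raised the genes called between the naïve lines from 14 to 36 of the whole table, and no member was among them (lowest adjusted p = 0.171).

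In naïve cells all 9 log2 differences were above 0, from 0.09 for Kdm6b to 0.49 for Jmjd1c. Their median was 0.30, beside 50.4% of all genes above 0 and a median of 0.00. Of the 18 other jumonji genes described below, 15 were above 0 too, with a median of 0.23. The differences of Kdm4a (0.12) and Kdm6b changed sign when 1 library was left out, Kdm4a without the first WT or the second mutant library and Kdm6b without the first or the second mutant library. The intervals allowed larger differences for Jmjd1c (95% confidence interval -0.02 to 0.99), Kdm3a (0.02 to 0.85), Kdm4b (-0.09 to 0.91) and Kdm2b (0.06 to 0.75). The WT and mutant libraries did not overlap for Kdm2a, Kdm2b and Kdm4c, 3 of 9 members beside 16.8% of all genes. WT was above mutant in all 3 same-numbered pairs for 6 members, Kdm2a, Kdm2b, Kdm3a, Kdm3b, Jmjd1c and Kdm4c. The share of all genes with such pairs was not counted, so this count cannot be read as a trait of the members.

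In primed cells 8 of 9 log2 differences were above 0, beside 51.3% of all genes, with a median of 0.40 beside 0.01. Kdm6b had the largest (0.56, SE 0.28), followed by Kdm3b (0.47, SE 0.20), Kdm4a (0.46, SE 0.17) and Kdm2a (0.41, SE 0.15), and Kdm3a had -0.04 (SE 0.19). Without the third mutant primed library the value of Kdm3a was above 0, and that of Kdm4c (0.03) was below 0 without the second WT or the first mutant primed library. WT and mutant libraries did not overlap for Kdm3b, Kdm4a and Kdm4b, 3 of 9 beside 22.4% of all genes. Whether the WT to mutant difference itself changed with the medium was tested as an interaction in limma. It was called for 0 of 9 members, beside 0% of all genes (smallest adjusted p = 0.976). At an unadjusted p under 0.05, 0 of 9 members passed, beside 3.45% of all genes. The Y-chromosome genes and Tet2 mRNA moved between lines with these values, and their part was not tested.

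**Figure D4:**
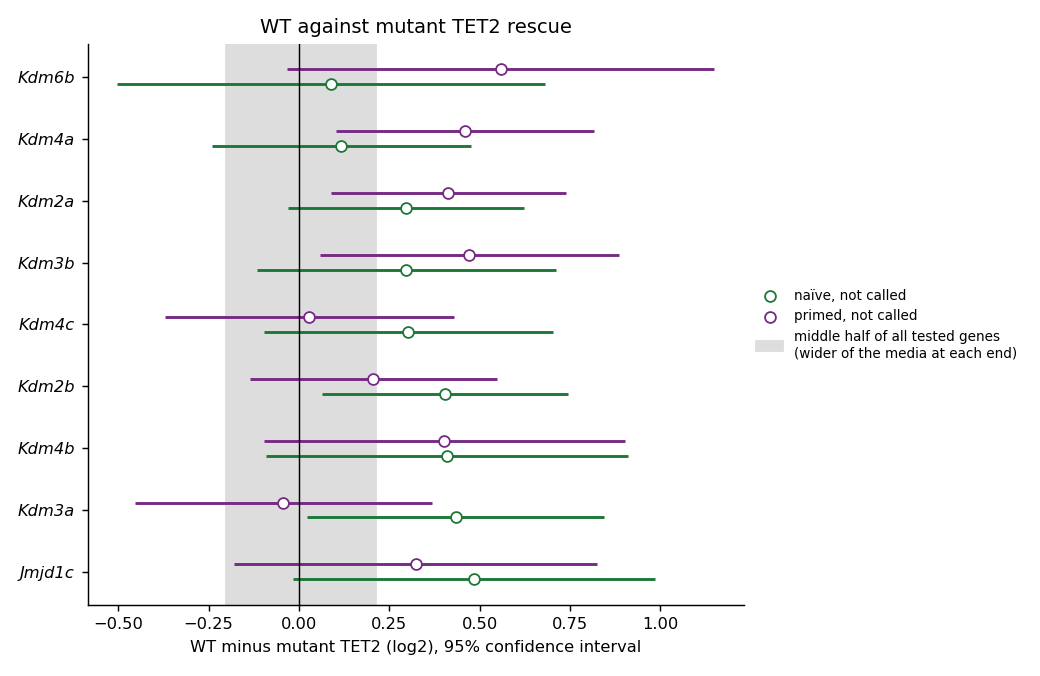
Difference between WT and mutant TET2 (horizontal axis, log2) for the 9 members in naïve and primed cells, with 95% confidence intervals and open points since none is called. The grey band runs from the first to the third quartile of all genes tested (the wider of the media at each end), and 7 of 9 members in naïve and 6 of 9 in primed cells lie to its right.

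The remaining jumonji genes were taken from a list of 25 symbols, of which 18 were in the table under these names and all 18 were tested. Between naïve and primed cells over both lines 12 were called, 2 higher and 10 lower in naïve cells, beside 25.4% of all genes called lower, with a median log2 difference of -0.35. Jarid2, a catalytically inactive partner of Polycomb, had -1.36, Hif1an, which hydroxylates the hypoxia factor, had -0.92, and Jmjd4 had -0.86. Jhdm1d (0.94) and Phf2 (0.67), from the family of PHD finger demethylases, were the 2 called higher. Between WT and mutant TET2, limma called 0 of the 18 in naïve cells and 1 in primed cells. This was the Y-linked Kdm5d (1.42, adjusted p = 0.0124). Of the 18, 15 had differences above 0 in each medium, with a median of 0.23 in naïve and 0.27 in primed cells. The Y-linked Kdm5d and Uty were among them. The lean towards the WT line was thus not particular to the members described above. The demethylases that use a flavin instead of iron, Kdm1a (-0.10) and Kdm1b (0.27), were not called between the media, and neither was called between the lines.

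Among the enzymes that make or use the cofactor 2-oxoglutarate, those called were higher in naïve cells. Of 15 on the list 9 were called between naïve and primed cells, all 9 higher, beside 26.4% of all genes called higher, with a median log2 difference of 0.40 over the 15. Gpt2, a transaminase that makes 2-oxoglutarate from glutamate, had 2.38 (SE 0.14), the mitochondrial isocitrate dehydrogenase Idh2 had 1.41 (SE 0.14) and Psat1, a transaminase of serine synthesis, had 0.84 (SE 0.12). In the WT line 9 were called and in the mutant line 5. Between WT and mutant TET2 0 of 15 were called in either medium.

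**Figure D5:**
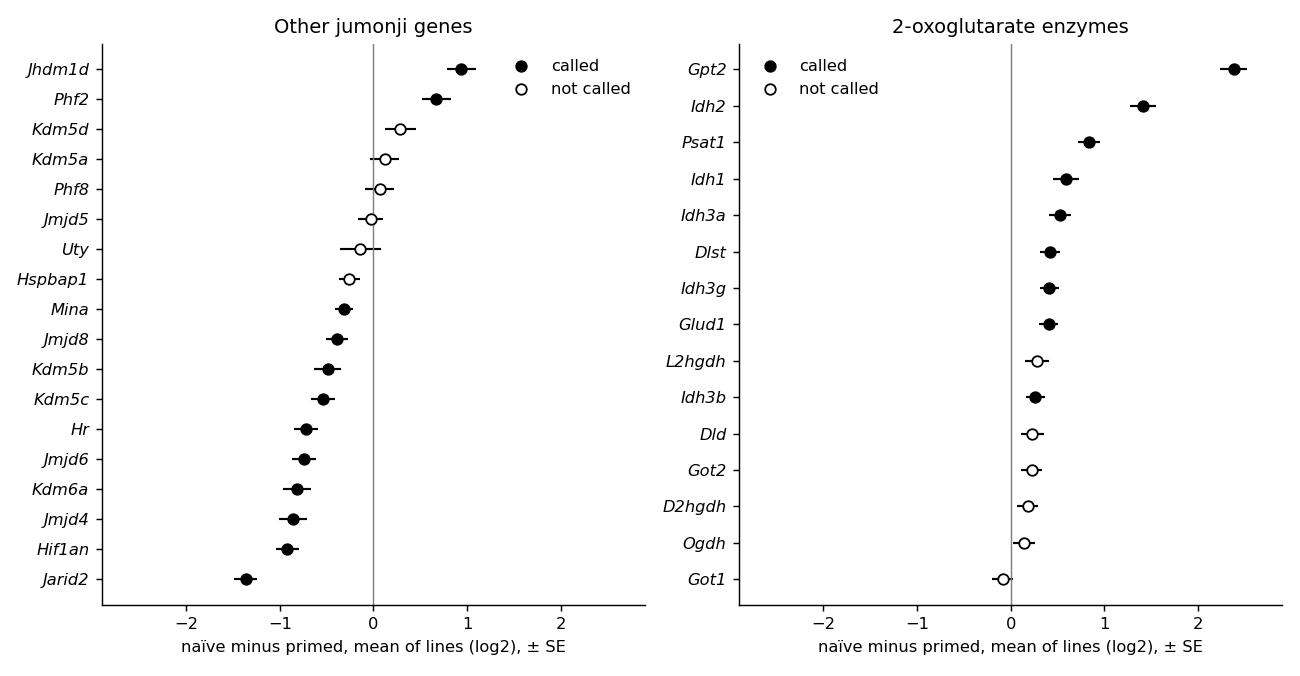
Difference between naïve and primed cells, mean of both lines (horizontal axis, log2, with SE as lines), for the other jumonji genes (left) and the enzymes of 2-oxoglutarate (right), with filled points for called genes. Of the called jumonji genes 10 of 12 lie below 0, and all 9 called enzymes lie above it.

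Over the 12 libraries, the genes with the pattern most like that of Jmjd1c were Myo5a, Jarid2, Pigl, Etv1 and Eaf1 (Pearson r of 0.99, 0.985, 0.98, 0.98 and 0.98 for log2 values). These values describe 12 libraries that fall into naïve and primed sets, so that any gene which differs strongly between media in the same direction scores high.

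The windows before the annotated starts of Jmjd1c, Kdm2b and Kdm4d are shown because these genes gave the lowest and the highest called difference in naïve cells and the near absence of reads. The set of RefSeq windows used here covered 6 of the 10 members, with 13 windows in all (build GRCm38.p6). The 250 bases before the outermost start in this set are printed, with CG in capitals.
Jmjd1c, plus strand, chr10:67126838-67127087: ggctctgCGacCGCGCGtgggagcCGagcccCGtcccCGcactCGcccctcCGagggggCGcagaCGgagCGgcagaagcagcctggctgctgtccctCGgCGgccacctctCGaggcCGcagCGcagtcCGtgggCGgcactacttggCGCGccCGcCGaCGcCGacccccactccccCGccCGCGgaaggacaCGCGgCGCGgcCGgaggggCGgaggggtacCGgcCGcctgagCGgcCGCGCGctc
Kdm2b, minus strand, chr5:122989100-122989349: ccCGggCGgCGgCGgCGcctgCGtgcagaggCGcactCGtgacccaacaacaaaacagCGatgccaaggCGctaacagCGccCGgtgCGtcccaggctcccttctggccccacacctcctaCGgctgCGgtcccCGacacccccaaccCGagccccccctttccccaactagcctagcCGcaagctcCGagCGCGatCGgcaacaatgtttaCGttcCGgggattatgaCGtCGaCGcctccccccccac
Kdm4d, minus strand, chr9:14500483-14500732: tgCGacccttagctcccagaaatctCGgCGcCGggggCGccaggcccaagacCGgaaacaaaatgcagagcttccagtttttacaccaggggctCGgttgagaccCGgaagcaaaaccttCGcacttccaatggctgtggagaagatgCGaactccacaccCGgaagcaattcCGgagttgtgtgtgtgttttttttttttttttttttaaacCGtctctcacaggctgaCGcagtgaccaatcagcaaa

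The motif searched was CG, which reads the same on both strands. Jmjd1c had 40 CG in this window, and 1.31% of all 32851 windows of this length held as many or more. Kdm2b had 27 (8.56% of windows) and Kdm4d 14 (29.4%), against a median of 6 over all windows. The window of Kdm4d, the gene with 5 reads in all, thus held more CG than the median window. The other annotated start of Jmjd1c had 11 CG (35.6% of windows), and the other 3 of Kdm2b had 12, 36 and 38 (33.5%, 2.58% and 1.88%). Which start each gene used in these cells was not measured.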

How the data were processed

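Poly(A) RNA was sequenced from 12 non-directional libraries. The authors trimmed the reads with Trim Galore 0.3.3, aligned them with TopHat2 2.0.9 to mm9 and applied DESeq2, per the labels' processing notes, and deposited log2-scale variance-stabilised values of 26061 genes. A second deposited table, of repeats, was not used here. Reads were recovered by inverting the transformation (100% of values whole within 0.01 read) and served for depth, RPKM (mm9 exon lengths from GENCODE, which matched 26036 genes) and limma-voom. The counting program and the replicate origin are not given in the sources used here.

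Genes with a mean at least 1 above the lowest value were tested with limma 3.58.1 in R 4.3.3 (lmFit, eBayes with trend), 4 groups in 1 fit over all 12 libraries, with Benjamini-Hochberg adjustment over 14185 genes. Intervals are 95%. The pipeline was tested on simulated data. Alternatives were other filters, no trend, other scalings, limma-voom, a replicate block, only the groups compared and leaving out each library. Same-numbered naïve WT and mutant libraries deviated together (correlations 0.30 to 0.59), so the numbers were taken to pair these samples, from the data and not from the labels. The members, lists and rules for named genes were chosen with earlier results of these data known. All 10 members are named, as are up to 3 called genes in each direction per list and the 5 genes most like Jmjd1c. Sequences came from the mm9 genome with its annotation and from RefSeq (GRCm38.p6). Protein sequences were not used here.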

Additional observations from a re-analysis of the deposited data

How the results depend on the processing

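Over the 45 member differences, 631 of 675 alternative fits kept the direction and the side of the threshold, 8 lost a call, 12 gained one and 24 turned the sign. Jmjd1c, Kdm2a, Kdm3a, Kdm4b and Kdm2b kept their calls between naïve and primed cells over both lines under all 19 alternatives. The turned signs belonged to values near 0. Centred on library medians, the naïve to primed differences were -0.026 for Kdm3b and -0.010 for Kdm4a. Leaving out each library, they ran from -0.083 to 0.092 and from -0.049 to 0.089, those of Kdm3b from -0.20 to 0.045 (WT line) and from -0.079 to 0.27 (mutant line) and that of Kdm6b in the WT line from -0.070 to 0.38. The WT to mutant differences ran from -0.027 to 0.23 (Kdm4a) and -0.10 to 0.39 (Kdm6b) in naïve cells and from -0.21 to 0.13 (Kdm3a) and -0.21 to 0.21 (Kdm4c) in primed cells. With 1 library left out, the members called ranged from 2 to 4 in the WT line and from 3 to 5 in the mutant line. With only the groups compared they were 5 and 3. In the WT line the calls over all genes ran from 3500 to 4685 with 1 library left out. They were 5314 with only the groups compared, beside 5095 as reported. The cause of these shifts was not tested. Kdm3a in the WT line was not called with no filter (adjusted p = 0.0506) or no trend (0.0529), and Kdm4b there was called with only the groups compared (0.0192). Kdm4b in the mutant line was called without naïve replicate 3 (0.00998) or primed replicate 3 (0.0181), Kdm4c without primed replicate 1 (0.00779), and Kdm6b without naïve replicate 2 (0.0448) or primed replicate 3 (0.0211).

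With the replicate block, Kdm6b was called between the media over both lines (0.46, adjusted p = 0.0199) and in the mutant line (0.69, adjusted p = 0.0217). This gave 6 and 4 members called, and no other member's call changed. Over both lines the block gave 7138 calls over all genes, beside 7342 without it. Outside the naïve lines the replicate numbers were shared only by name. Correlations were -0.07 to 0.19 between primed lines, -0.02 to 0.22 between WT media and -0.15 to -0.05 between mutant media. Over all genes, the primed lines gave 209 calls with the block, 36 without, 18 with only the groups compared and 12 to 82 with 1 library left out. The naïve lines gave 14 calls as reported, 9 without a filter or with only the groups compared and 5 to 14 with 1 library left out. Kdm4d, with 5 reads in all, was tested only without the filter on low values, and at this count low and absent expression cannot be told apart.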
